A study of Homo sapiens with 16 samples.

Results

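This account compares talazoparib with olaparib in MUTZ-3 cells. It rests on the 6 inhibitor libraries of a series of 16, chosen by their labels and paired by time: 3 libraries of cells given 1 µM talazoparib and 3 of cells given 10 µM olaparib, each for 12, 24 or 48 h. MUTZ-3 is a human AML cell line that carries inv(3), a rearrangement that places *EVI1* (listed as *MECOM*) under a displaced *GATA2* enhancer. It was grown with GM-CSF and medium conditioned by 5637 cells in all groups. The 3 DMSO vehicle libraries of the same times, also MUTZ-3, were used as the common baseline. The remaining 7 libraries (untreated cells at 0 h, and cells with a non-targeting control or an shRNA against *EVI1* at day 3 and day 6) enter only where they are named.

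Each condition was sequenced once in 1 cell line, and the inhibitors were given at different doses, so compound and dose cannot be told apart. The inhibitor libraries held 55999673 to 71547678 counts and the DMSO libraries 63705916 to 72681943. Of 60623 genes, 17218 reached 10 counts in 3 or more of these 9 libraries and were tested. Levels are given as CPM, read counts scaled to the size of the library after TMM, and differences as log2 CPM ratios of talazoparib to olaparib at the same time (prior count 2). Below 0 the talazoparib library was the lower. Intervals are 95% and cover counting error only. *MECOM* (9.98 to 61.8 CPM) and the progenitor marker *CD34* (110.5 to 435 CPM) were present in all 9 libraries. A count of 3, the least taken as detected, equals 0.0413 to 0.0536 CPM.

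Olaparib and talazoparib both occupy the nicotinamide pocket of PARP1 and PARP2, enzymes that mark DNA breaks with chains of ADP-ribose. Talazoparib is the more potent trapper: it holds PARP1 on DNA more firmly, and a trapped enzyme can block a replication fork. Cells that meet such lesions may arrest the cycle, lose transcripts of S phase and mitosis, and induce targets of p53. In MUTZ-3, loss of *EVI1* is also linked to myelomonocytic maturation, so progenitor and monocyte genes form a further readout here.

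Over all genes the difference between the inhibitors was small at 12 h and grew with time. In the 9176 genes whose mean log2 CPM over the inhibitor libraries was 3 or more, the ratio had an SD of 0.161, 0.229 and 0.389 at 12, 24 and 48 h, while the median counting SE of a single ratio stayed between 0.037 and 0.046. The median size of the ratio, sign aside, was 0.09, 0.137 and 0.208. Of these genes, 1 was past 2-fold higher and 2 were past 2-fold lower with talazoparib at 12 h. At 24 h the numbers were 7 and 15, and at 48 h they were 9 and 215. The excess at 48 h therefore lay on the side that was lower with talazoparib. Over all genes tested, which include low ones with wide counting error, 231 (1.34%), 324 (1.88%) and 358 (2.08%) were past 2-fold higher at 12, 24 and 48 h, and 185 (1.07%), 211 (1.23%) and 757 (4.4%) were past 2-fold lower.

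**Figure D1:**
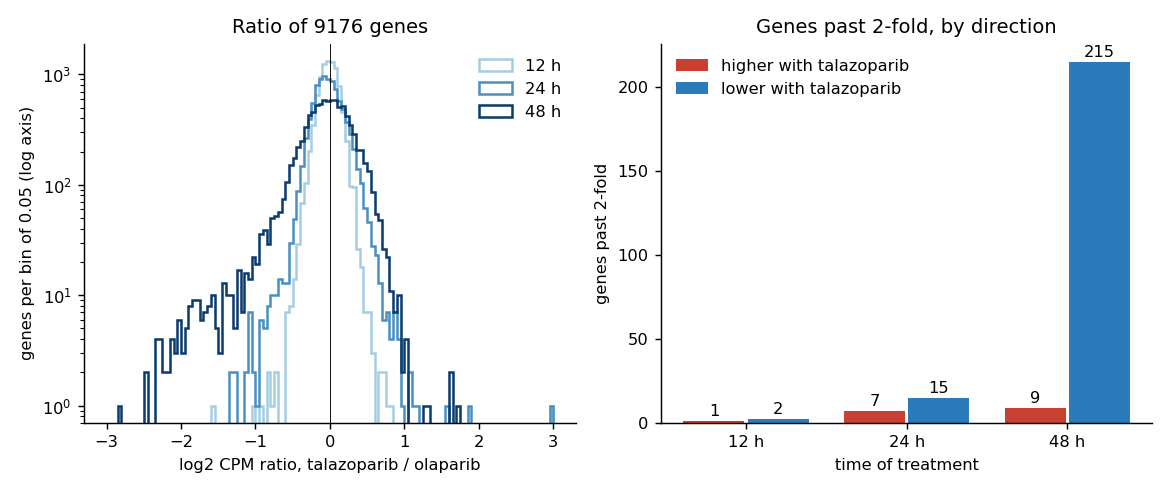
Left, histogram of the log2 CPM ratio of talazoparib to olaparib for 9176 genes with a mean log2 CPM of at least 3 at 12, 24 and 48 h, with the number of genes per bin on a log axis and values beyond 3 in either direction drawn in the outermost bins. Right, bars give the number of these genes past 2-fold at each time, which reached 215 lower and 9 higher with talazoparib at 48 h.

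A ratio with the same sign at all 3 times was found for 2839 genes that were higher with talazoparib (16.5% of those tested) and for 2967 that were lower (17.2%). This split depended on the scaling. With upper quartile scaling it was 3393 higher and 2383 lower, and with the library total alone it was 2247 higher and 3656 lower. Gene lists are counted below over the members that passed the filter on counts, which were all members of the G2/M, S phase, repair, MHC class II, AP-1, nucleolar and mitochondrial lists, 49 of 52 p53 targets, 60 of 64 interferon-stimulated, 44 of 46 lysosome, 34 of 38 monocyte, 31 of 35 stem cell, 25 of 35 granule and 5 of 19 erythroid genes. Most of the ratios were small: 605 of the higher and 823 of the lower genes lay outside the counting interval at each time. Among genes with a mean log2 CPM of at least 3, 1226 were higher at all times, with median ratios of 0.11, 0.15 and 0.29, and 1943 were lower, with medians of −0.10, −0.14 and −0.30. The size of the ratio grew at both steps in 401 of the former and 832 of the latter.

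No gene had a mean difference over the 3 times that passed edgeR's quasi-likelihood test (0% of genes, smallest adjusted p = 0.952), while 354 genes had an unadjusted p under 0.05 and DESeq2 called 1. The error of this test holds any change with time of each inhibitor's departure from DMSO, and so of their difference. Growing differences widen it, so 0 calls do not show that the inhibitors were alike. Whether the difference changed with time was tested as its slope per doubling of the hours. The difference fell, that is, moved to the talazoparib-lower side, in 234 genes (1.36%) and rose in 28 (0.163%). With 1 library per condition the error of this test comes from the departure of the 3 times from a straight line, and not from replicate cultures. Each gene has only 2 residual degrees of freedom, and the quasi-likelihood fit draws its error toward a value shared over genes. The SEs and p-values given for single genes therefore do not measure that gene's own departure from a line alone. Of the 234 genes, 122 were lower with talazoparib at all times, and the median ratios over the 234 at 12, 24 and 48 h were −0.03, −0.36 and −1.55. In DMSO alone, 122 of the 234 were lower at 48 than at 12 h, with a median change of −0.05.

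The members of the 2 gene lists that moved most differ in the sequence upstream of their start sites, which is printed here beside the data because these promoters belong to genes described next. Cell cycle promoters are textbook cases of shared elements: the CHR element (letters TTTGAA) is known from promoters of mitotic genes, the E2F motif (TTTNNCGC, N being C or G) from those of replication genes, and the CCAAT box (CCAAT) from many promoters. In the 250 bases upstream of the start, on either strand, RefSeq promoters (GRCh38.p14) held the CHR letters in 13.3% of all 35116 entries, in 25 of 49 G2/M genes with an entry (51.0%) and in 1 of 47 S phase genes (2.13%). The E2F letters were in 2.79% of all entries, in 36.2% of the S phase genes and in 4.08% of the G2/M genes. CCAAT was in 32.0% of all entries, 69.4% of the G2/M genes and 59.6% of the S phase genes. MHC class II genes held CCAAT in 10 of 11 entries and the CHR letters in 4 (36.4%). Such a match describes letters and not a site in use. In the 120 bases upstream of 6 genes, 5′ to 3′ on the gene's strand, capitals mark these letters on either strand:
CDC20 (mitosis, chr1:43358861-43358980, plus strand): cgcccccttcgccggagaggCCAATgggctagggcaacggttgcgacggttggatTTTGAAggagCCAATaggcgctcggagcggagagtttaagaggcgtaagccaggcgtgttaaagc
PLK1 (mitosis, chr16:23678769-23678888, plus strand): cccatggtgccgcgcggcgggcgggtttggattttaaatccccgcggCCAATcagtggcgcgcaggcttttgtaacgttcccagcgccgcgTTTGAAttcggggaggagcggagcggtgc
BUB1B (mitosis, chr15:40160949-40161068, plus strand): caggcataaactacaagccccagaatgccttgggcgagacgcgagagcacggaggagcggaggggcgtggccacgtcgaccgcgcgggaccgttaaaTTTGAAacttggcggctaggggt
PCNA (replication, chr20:5126623-5126742, minus strand): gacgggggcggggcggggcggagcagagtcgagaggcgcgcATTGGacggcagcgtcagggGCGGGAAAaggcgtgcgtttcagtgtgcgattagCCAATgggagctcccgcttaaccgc
CDC6 (replication, chr17:40287759-40287878, plus strand): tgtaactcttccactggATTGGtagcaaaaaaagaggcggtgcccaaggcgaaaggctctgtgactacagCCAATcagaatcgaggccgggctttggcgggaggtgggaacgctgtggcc
CD74 (MHC class II, chr5:150412911-150413030, minus strand): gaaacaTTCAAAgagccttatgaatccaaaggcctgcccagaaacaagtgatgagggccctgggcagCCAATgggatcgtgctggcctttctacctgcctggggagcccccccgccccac

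G2/M and mitosis genes were the set in which the inhibitors parted most. Of 57 members, 55 were lower with talazoparib at all 3 times, against 17.2% of all genes, and 50 of them lay outside the counting interval each time. The exceptions were *MKI67* and *TACC3*. The median ratios were −0.24, −0.74 and −1.73, against 0.00, −0.01 and −0.01 over all genes tested. The difference fell with time in 39 members by the slope test (adjusted p under the threshold of 0.05 over all genes, against 1.36% of all genes) and rose in 0. Across the scalings and prior counts tried, 51 to 55 members were lower at all times. In bulk RNA, fewer dividing cells and less of a transcript per cell cannot be told apart.

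*CDC20* (chr1:43358981-43363203), the activator of the anaphase-promoting complex, stood at 165, 115 and 50.0 CPM with olaparib at 12, 24 and 48 h, at 134, 45.6 and 9.85 CPM with talazoparib, and at 240.0, 265 and 153 CPM with DMSO. The talazoparib library was thus the lowest of the 3 at each time, and the olaparib library lay between it and DMSO. The log2 ratios were −0.30, −1.33 and −2.34, a slope of −1.03 ± 0.16 (SE) per doubling of time (adjusted p = 9.1e-08). *AURKB*, the kinase of the chromosomal passenger complex, had 90.4, 58.5 and 33.5 CPM with olaparib and 84.6, 33.1 and 6.60 CPM with talazoparib. The 12 h libraries were close, with a ratio of −0.09, and the 48 h ratio was −2.34, which gave a slope of −1.11 ± 0.16 (adjusted p = 7.8e-09). *TOP2A*, the topoisomerase that decatenates sister chromatids, had 436, 402 and 172 CPM with olaparib and 346, 202 and 35.3 CPM with talazoparib. At 12 h the olaparib library was level with DMSO (435 CPM) and the talazoparib library below it.

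Among the kinases and cyclins that drive mitotic entry, *PLK1* had 183, 127 and 55.8 CPM with olaparib and 149, 52.6 and 16.8 CPM with talazoparib. *CCNB1* (cyclin B1) had 188, 186 and 114 CPM against 147, 89.4 and 32.1 CPM, and *CCNA2* (cyclin A2) 127, 106 and 53.9 CPM against 95.6, 67.0 and 11.0 CPM. In each of these genes talazoparib was lower at every time, and the gap widened at each step. Ranked by the smallest of the 3 ratios, among genes with a mean log2 CPM of at least 3 that were lower at all times, the first 10 included the cell division genes *CENPA* (−0.58, −0.93 and −2.45), *DEPDC1* (−0.51, −0.70 and −2.30), *HMMR* (−0.48, −0.82 and −2.27), *CDKN3* (−0.47, −0.74 and −2.29), *DLGAP5* (−0.46, −1.10 and −2.24) and *NUF2* (−0.42, −0.64 and −2.30). *DEPDC1* and *CDKN3* are not members of the G2/M list. *INSIG1*, which is no cell cycle gene, *MTFR2*, *FAM83D* and *CCNA2* completed the 10. *MKI67*, the proliferation marker Ki-67, had a ratio of 0.04 at 12 h and −1.60 at 48 h.

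At 48 h the 57 members fell into a lower and a higher range of ratios with a gap between them. The 40 members from *NEK2* (−2.47) to *ANLN* (−1.31) were past 2-fold, and the other 17 ran from *PSRC1* (−0.71) to *TACC3* (0.14). The latter include *AURKA* (58.5 CPM with olaparib and 39.4 CPM with talazoparib, ratio −0.57), the kinase of the spindle poles, *TUBB4B* (−0.65), *HMGB2* (−0.38), *CKS2* (−0.30) and *LBR* (−0.12). This grouping was noticed in the values and was not tested.

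**Figure D2:**
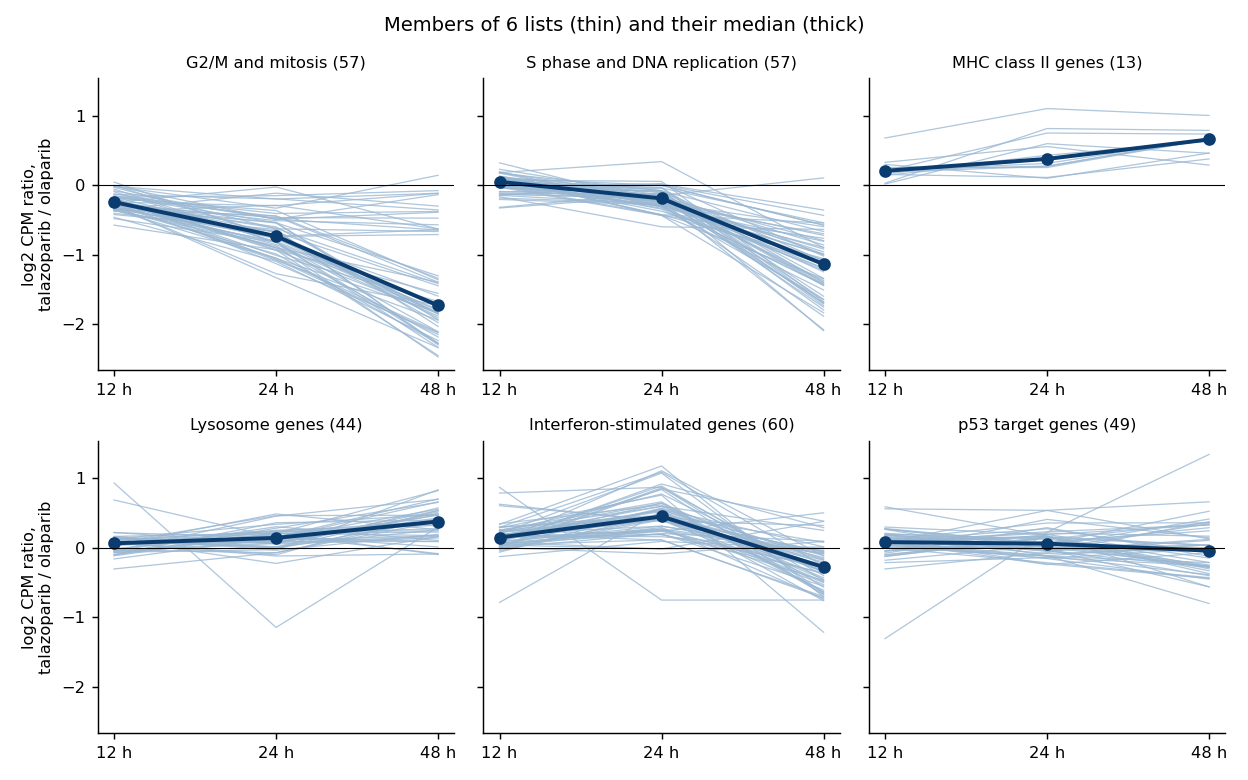
Each thin line is 1 gene of a list, and its log2 CPM ratio of talazoparib to olaparib is plotted at 12, 24 and 48 h. Thick lines with points are the list medians, which reach −1.73 for G2/M genes and 0.66 for MHC class II genes at 48 h and turn from 0.45 at 24 h to −0.28 at 48 h for interferon-stimulated genes.

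S phase and DNA replication genes separated later. At 12 h, 34 of 57 members were higher with talazoparib, at 24 h 52 were lower and at 48 h 56 were lower, with medians of 0.05, −0.19 and −1.14. Over all 17218 genes, 8653 were higher at 12 h, 8724 lower at 24 h and 8852 lower at 48 h. Only 21 members were therefore lower at all 3 times, against 17.2% of all genes. When the 12 h libraries were left out 51 were lower, against 5084 of all 17218 genes. The difference fell with time in 32 members, against 1.36% of all genes. *RRM2*, the small subunit of ribonucleotide reductase, had 213, 131 and 62.0 CPM with olaparib and 224, 136 and 19.3 CPM with talazoparib. Its levels were close at 12 and 24 h, with ratios of 0.07 and 0.05, and the 48 h ratio was −1.68 (slope −0.87 ± 0.16, adjusted p = 2.0e-05).

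*MCM10*, a DNA replication factor, had 66.1, 42.4 and 16.9 CPM with olaparib and 71.2, 36.3 and 3.97 CPM with talazoparib (slope −1.05 ± 0.17, adjusted p = 3.6e-07). *GINS1*, a helicase subunit, had 71.5, 53.3 and 36.6 CPM against 65.9, 48.8 and 8.54 CPM. *CDC6*, which licenses origins, had 87.9, 61.3 and 29.8 CPM against 99.1, 58.0 and 8.94 CPM. For these genes nearly all of the difference arose between 24 and 48 h. *PCNA*, the sliding clamp and a p53 target as well, had 599.6, 497 and 466 CPM with olaparib and 594, 504 and 229.7 CPM with talazoparib, and its slope of −0.50 ± 0.15 missed the threshold (adjusted p = 0.057). The exception at 48 h was *POLE*, a replicative polymerase, with a ratio of 0.10.

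Most members of both lists stood higher with talazoparib at 24 h than with olaparib at 48 h, but the G2/M list was divided. Of the S phase members, 57 of 57 had the higher level in the 24 h talazoparib library, with a median log2 difference of 0.64. Of the G2/M members 39 were higher and 18 lower, with a median of 0.24. *CDC20*, *PLK1* and *CCNB1* were among the lower. Over all genes tested, 8749 were higher and 8468 lower in that comparison.

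Homologous recombination, Fanconi and checkpoint genes followed the S phase genes at smaller size. Of 54 members, 24 were lower with talazoparib at all times (17.2% of all genes) and 0 higher (16.5%). The medians were −0.02, −0.24 and −0.64, and the difference fell in 12, against 1.36% of all genes. *CHEK1*, the checkpoint kinase that responds to stalled forks, had 62.0, 45.4 and 24.1 CPM with olaparib and 58.0, 35.4 and 6.91 CPM with talazoparib (48 h ratio −1.80, slope −0.83 ± 0.16, adjusted p = 6.6e-05). *BRCA1*, whose loss sensitises cells to PARPi, had 77.5, 62.7 and 27.3 CPM against 82.2, 48.8 and 9.42 CPM, so it was higher with talazoparib at 12 h and lower afterwards. *FANCI*, of the Fanconi pathway, had 48 h levels of 45.2 and 15.0 CPM (ratio −1.59). *BRCA2* (48 h ratio −0.89) and *WEE1* (−1.11) did not pass the slope test. *ATM*, *MUS81* and *HUS1* had ratios between −0.09 and 0.18 at every time.

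**Figure D3:**
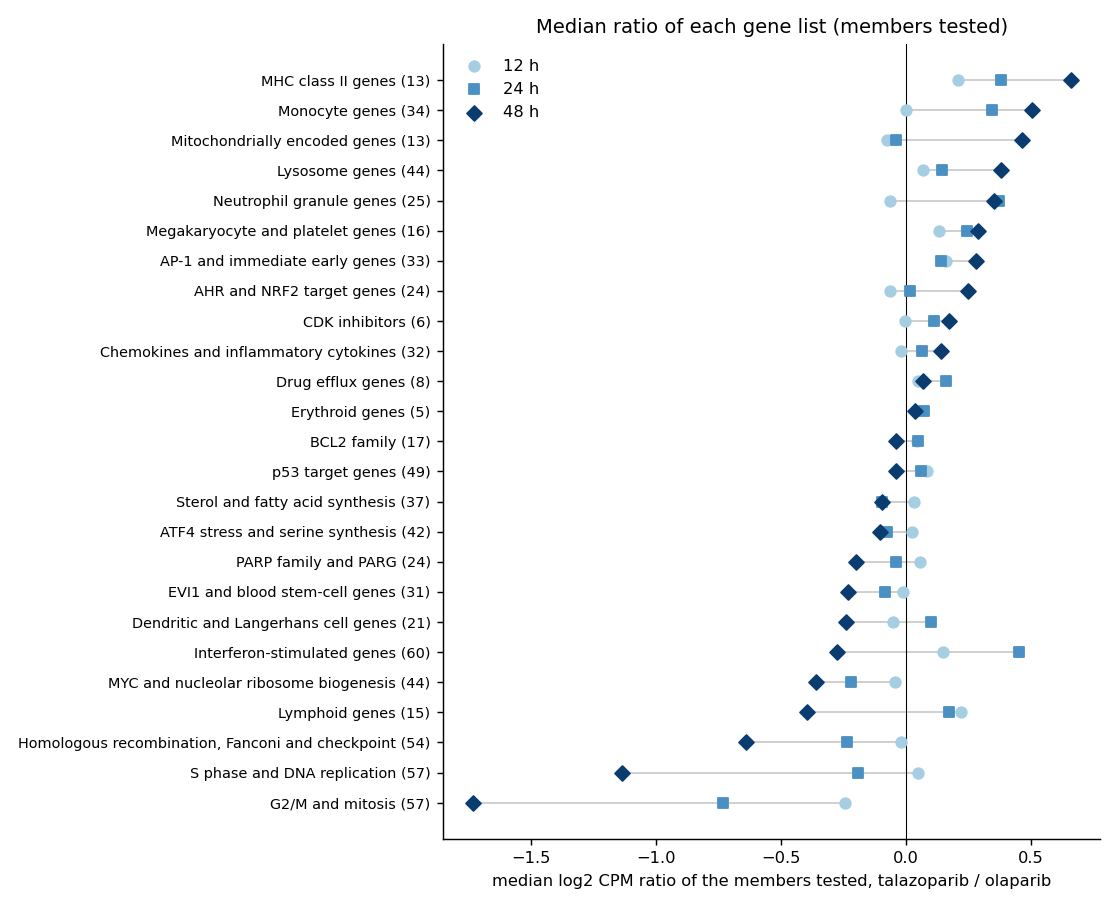
Median log2 CPM ratio of talazoparib to olaparib at 12, 24 and 48 h (points of increasing darkness) for 25 gene lists, with the number of members tested in brackets. The lists run from G2/M and mitosis (−1.73 at 48 h) to MHC class II genes (0.66 at 48 h).

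Cell cycle arrest genes and p53 targets separated the inhibitors far less. Against DMSO of the same time, the 49 p53 targets had median ratios of 0.61, 0.68 and 0.80 with olaparib and of 0.64, 0.68 and 0.88 with talazoparib, and the medians of talazoparib to olaparib were 0.08, 0.06 and −0.04. Here 12 members were higher with talazoparib at all times (16.5% of all genes) and 1 lower, and 0 changed by the slope test. *CDKN1A* (p21), the CDK inhibitor that p53 induces, stood at 559.8, 537 and 594 CPM with olaparib, 689, 613 and 746 CPM with talazoparib and 219, 195 and 105 CPM with DMSO. It was higher with talazoparib at each time, with ratios of 0.30, 0.19 and 0.33 (intervals 0.28 to 0.32, 0.17 to 0.21 and 0.31 to 0.35) and a slope of 0.01 ± 0.15. *MDM2*, the ligase that degrades p53, had 428, 428 and 345 CPM against 459, 481 and 267 CPM, higher with talazoparib at 12 and 24 h and lower at 48 h. The same order of signs was found for *GDF15*, a secreted stress factor (10.7, 14.3 and 8.25 CPM against 16.1, 16.1 and 5.57 CPM), and *DDB2*, a repair factor, had ratios of 0.16, −0.05 and −0.28. The proapoptotic *BBC3* (PUMA) differed by 0.15 or less at every time.

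Among the 17 genes of the BCL2 family, 3 were higher and 2 lower with talazoparib at all times, close to the background of all genes (16.5% and 17.2%). *BCL2* had 48 h levels of 21.2 and 18.1 CPM (ratios 0.04, −0.39 and −0.23) and *MCL1* of 283 and 342 CPM (−0.11, 0.05 and 0.27). Of 6 CDK inhibitors 2 were higher and 1 lower, and of 24 genes of the PARP family 2 were higher and 4 lower. *PARP1* itself had 384, 300.1 and 184 CPM with olaparib and 416, 247 and 138 CPM with talazoparib (ratios 0.11, −0.28 and −0.41). *PARP2*, the other target, was level at 12 and 24 h (0.07 and 0.01) and had 10.7 and 6.12 CPM at 48 h (ratio −0.80). *SLFN11*, a helicase-like gene tied to PARPi sensitivity in other cells, had 28.8 and 16.3 CPM at 48 h (ratio −0.82, adjusted p of the slope 0.20). Of 8 efflux genes 2 were higher and 1 lower, and *ABCB1*, whose pump exports olaparib, was low, at 0.125 to 0.204 CPM with the inhibitors.

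*EVI1* and its companions in blood stem cells were mixed, with 9 of 31 lower (29.0%) and 3 higher (9.68%) with talazoparib at all times. Over all genes, 17.2% were lower and 16.5% higher. The list medians were −0.01, −0.09 and −0.23. *MECOM* (chr3:169083499-169663775) had 44.5, 38.6 and 23.3 CPM with olaparib, 45.0, 30.9 and 9.98 CPM with talazoparib and 48.8, 49.1 and 61.8 CPM with DMSO. The inhibitors were level at 12 h (ratio 0.02) and apart at 24 and 48 h (−0.32 and −1.22), with a slope of −0.61 ± 0.16 (adjusted p = 0.014). *ERG*, an ETS factor of progenitors, crossed over: 25.7, 18.6 and 11.0 CPM against 31.8, 17.7 and 2.96 CPM (slope −1.05 ± 0.17, adjusted p = 6.7e-07). *KIT*, the receptor of stem cell factor, was lower with talazoparib at each time (128, 109.8 and 61.1 CPM against 108, 69.9 and 22.2 CPM). *CD34*, the progenitor surface marker, began higher with talazoparib (308 and 435 CPM at 12 h) and ended lower (152 and 110.5 CPM at 48 h). *GATA2*, *HOXA10* and *FLI1* differed by 0.16 or less at every time.

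**Figure D4:**
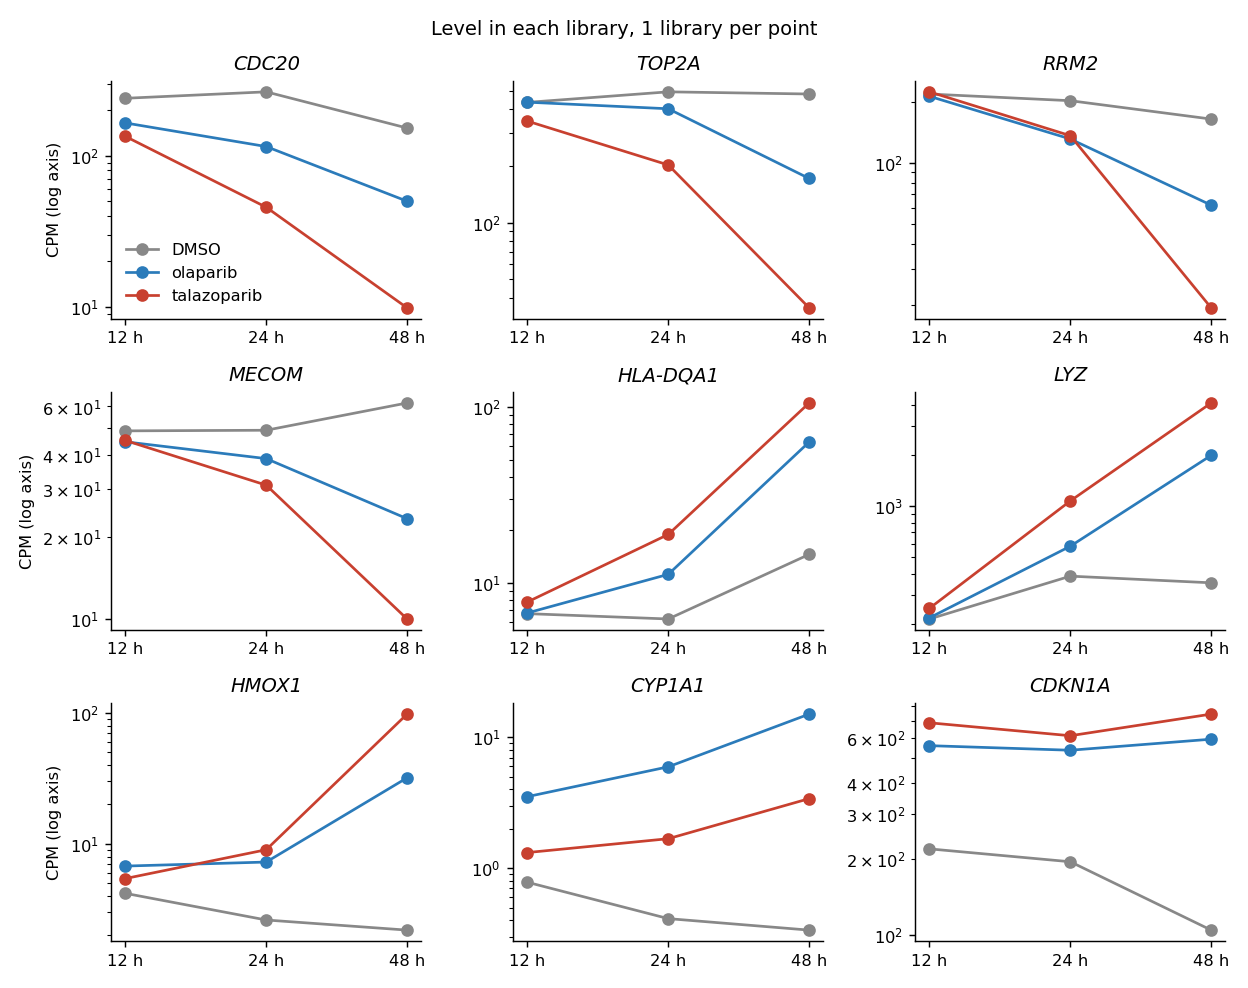
CPM on a log axis of 9 genes in the DMSO, olaparib and talazoparib libraries at 12, 24 and 48 h, 1 library per point. The talazoparib library has the lowest *CDC20* level at each time (9.85 CPM at 48 h) and the highest *CDKN1A* level, while *CYP1A1* is highest with olaparib (15.1 CPM at 48 h).

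On the side that was higher with talazoparib, MHC class II genes were the most uniform. These encode the chains that present peptide to helper T cells, their chaperones and the activator *CIITA*. All 13 members tested were higher with talazoparib at all 3 times, under every scaling and prior count tried and with any time left out, against 16.5% of all genes, and 11 lay outside the counting interval each time. The medians were 0.21, 0.38 and 0.66. None of them passed the slope test or the test of the mean, which called 0 genes. *HLA-DQA1* had 6.77, 11.2 and 63.1 CPM with olaparib, 7.82, 18.9 and 105 CPM with talazoparib and 6.71, 6.26 and 14.5 CPM with DMSO. *CD74*, the invariant chain, had 1091, 851 and 1272 CPM against 1303, 1015 and 2016 CPM, with ratios of 0.26, 0.25 and 0.66. *HLA-DRA* was level at 12 h (0.02) and had 2254 and 3099 CPM at 48 h (0.46). *HLA-DOA*, a modulator of peptide loading, had the largest ratios (0.68, 1.10 and 1.00) at low levels of 0.475, 0.592 and 2.99 CPM against 0.779, 1.31 and 6.03 CPM. *CIITA* had ratios of 0.30, 0.10 and 0.46. Reads of the *HLA-DRB* genes can be shared between near-identical alleles and copies, so their split is uncertain.

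Lysosome genes code for acid hydrolases, proton pump subunits and the regulator *TFEB*. Of 44 members, 22 were higher with talazoparib at all times (16.5% of all genes) and 0 lower (17.2%). The medians were 0.07, 0.14 and 0.38. *CTSA* (127, 124 and 146 CPM against 148, 138 and 238 CPM), *GAA* (45.2, 50.9 and 100.5 CPM against 50.7, 58.9 and 178 CPM) and *SQSTM1* (48 h ratio 0.66) are examples of members higher at each time. *CTSD*, the aspartyl protease, was level at 12 and 24 h (−0.06 and −0.03) and had 278 and 496 CPM at 48 h (0.84). In the list, 19 to 26 members were higher at all times over the settings tried.

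Monocyte genes stood above DMSO with both inhibitors by their medians and parted after 12 h. The medians against DMSO were 0.22, 0.99 and 1.91 with olaparib and 0.21, 1.46 and 2.31 with talazoparib. Between the inhibitors, 9 of 34 members were higher with talazoparib at all times (16.5% of all genes) and 0 lower (17.2%). The medians of this ratio were 0.00, 0.35 and 0.50. Without the 12 h libraries 26 were higher, against 4723 of all 17218 genes. *LYZ* (lysozyme) had 219, 580.4 and 2001 CPM with olaparib and 249, 1076 and 4087 CPM with talazoparib (ratios 0.19, 0.89 and 1.03). *ITGAM* (CD11b) had 44.6, 67.1 and 123 CPM against 62.2, 91.6 and 228 CPM. *CD14* started lower with talazoparib (13.3 and 10.7 CPM), was level at 24 h (24.8 and 26.1 CPM) and ended higher (64.5 and 96.1 CPM). *S100A12*, an alarmin, was the member whose difference rose by the slope test (8.67, 21.9 and 83.8 CPM against 6.86, 30.8 and 142 CPM, adjusted p = 0.036). *CSF1R*, the M-CSF receptor, went the other way against DMSO at 48 h, with 178 CPM with olaparib and 185 CPM with talazoparib against 235 CPM. *CX3CR1* was likewise below DMSO, with 15.0 and 13.1 CPM against 29.8 CPM.

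Of the neutrophil granule genes, 8 of 25 were higher with talazoparib at all times (16.5% of all genes) and 1 lower (17.2%). *BPI*, an antibacterial granule protein, had 37.3, 55.0 and 131 CPM against 42.3, 79.4 and 201 CPM. At 48 h, 22 members were higher and 3 lower, against 8360 and 8852 of all 17218 genes. The granule enzymes *MPO* and *ELANE* were among the lower. *MPO* had 1260, 1319 and 1003 CPM with olaparib and 1452, 1267 and 599 CPM with talazoparib, a 48 h ratio of −0.74. *ELANE* had a 48 h ratio of −0.71. *CHI3L1*, a chitinase-like protein, was lower with talazoparib at 12 and 24 h (−0.82 and −0.71) and higher at 48 h (0.42), and its slope passed the test (adjusted p = 0.013).

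By the same ranking among genes that were higher at all times, those outside these lists were *LRP1*, a scavenger receptor (4.75, 7.36 and 21.7 CPM against 8.18, 14.2 and 68.1 CPM, ratios 0.78, 0.95 and 1.65), *NFAM1* (0.75, 0.56 and 0.92), *CLU* (0.66, 0.60 and 0.99), *HRH2*, a histamine receptor (0.41, 0.43 and 0.88), *TXNIP* (0.38, 0.64 and 0.69) and the noncoding *PCED1B-AS1* (0.44, 0.70 and 0.63). *LRP1* overlaps *STAT6*, and the strand setting of the counting is not given in the sources used here. *RN7SL1* (0.68, 1.88 and 1.32), *RPL41P2* and *RPL41P5* also met the rule, and their reads may be shared with near-identical copies. Complement *C3* grew apart at each step, from 23.6 and 26.9 CPM at 12 h to 23.6 and 32.1 CPM at 24 h and 49.8 and 122 CPM at 48 h (slope 0.55 ± 0.15, adjusted p = 0.027). Growing ratios that missed the threshold were those of *MMP25* (0.04, 0.39 and 1.03), *KCTD12* (0.04, 0.40 and 0.93) and *HK3*, a hexokinase of phagocytes (0.13, 0.45 and 0.95). *FTL*, ferritin light chain, counted together with its processed copy *FTLP3*, had 2608, 2779 and 5177 CPM with olaparib and 2728, 3255 and 9420 CPM with talazoparib (0.07, 0.23 and 0.86).

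**Figure D5:**
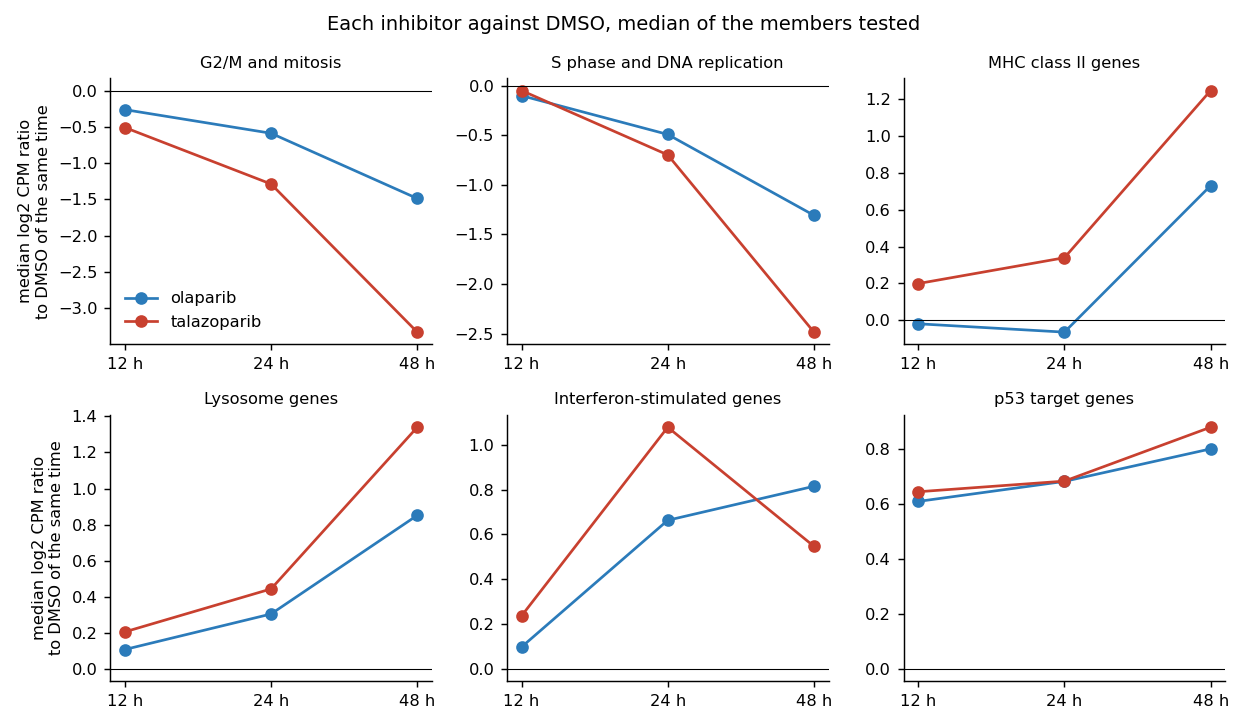
Median log2 CPM ratio to the DMSO library of the same time for the members of 6 lists, with olaparib and talazoparib as separate lines over 12, 24 and 48 h. Both lines share the DMSO libraries. They lie together for p53 targets (0.80 and 0.88 at 48 h) and apart for G2/M genes (−1.49 and −3.33 at 48 h).

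Interferon-stimulated genes changed sign. With talazoparib 53 of 60 members were higher at 12 h and 56 at 24 h, and 49 were lower at 48 h, with medians of 0.15, 0.45 and −0.28. Over all 17218 genes, 8653 were higher at 12 h, 8494 higher at 24 h and 8852 lower at 48 h. *IFIT1*, which binds foreign RNA caps, had 14.9, 55.5 and 299 CPM with olaparib and 18.9, 126 and 183 CPM with talazoparib. *ISG15*, a ubiquitin-like modifier, had 51.3, 113 and 604 CPM against 54.6, 245 and 556 CPM. *IFIT2* crossed over, from 31.6 and 53.5 CPM at 24 h to 90.7 and 39.0 CPM at 48 h, and it was the member whose difference fell by the slope test (−0.77 ± 0.16, adjusted p = 5.8e-04). *IFI6* (48 h ratio 0.38), *BST2* (0.25), *IFI27* (0.29), *LGALS3BP* (0.51) and *GBP2* (0.32) were higher with talazoparib at each time. DMSO libraries moved as well, with a median rise of 1.00 from 12 to 48 h over this list.

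Chemokines and cytokines split, with 10 of 32 higher (31.2%) and 7 lower (21.9%) at all times, against 16.5% and 17.2% of all genes. *TNF* (4.08, 9.46 and 16.8 CPM against 3.04, 6.96 and 13.2 CPM), *CXCL2* and *PTGS2* were among the lower, and *CCL2*, which recruits monocytes (130.4, 225 and 321 CPM against 141, 275 and 447 CPM), and *OSM* among the higher. *CXCL8* had 196, 346 and 759 CPM against 132, 366 and 646 CPM. AP-1 and immediate early genes were higher with talazoparib at all times in 15 of 33 (16.5% of all genes) and lower in 4 (17.2%). Their medians were 0.16, 0.14 and 0.28. *ID2*, an inhibitor of helix-loop-helix factors, had 40.5, 63.4 and 166 CPM against 47.4, 97.5 and 236 CPM, and *ZFP36*, which destabilises cytokine mRNA, 36.9, 52.5 and 82.4 CPM against 41.2, 64.4 and 119 CPM. *JUND* was lower at each time (−0.39, −0.36 and −0.14).

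Nucleolar and MYC target genes were lower with talazoparib at all times in 24 of 44 members (17.2% of all genes) and higher in 0 (16.5%). Their medians were −0.05, −0.22 and −0.36. *ODC1*, the first enzyme of polyamine synthesis, had 288, 207 and 97.9 CPM against 269, 163 and 57.1 CPM, and *DDX21*, a nucleolar helicase, 439, 391 and 235 CPM against 414, 329.6 and 158 CPM. *UTP20* was the member that passed the slope test (48 h ratio −1.12, adjusted p = 0.022). *MYC* itself had ratios of −0.11, −0.11 and 0.24.

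Among amino acid and stress genes, *PHGDH*, the first enzyme of serine synthesis, had 76.0, 26.7 and 9.64 CPM with olaparib, 83.9, 20.8 and 2.32 CPM with talazoparib and 86.1, 67.7 and 193 CPM with DMSO (slope −1.02 ± 0.17, adjusted p = 2.6e-06). Over the 42 members of the ATF4 list, 9 were higher (21.4%) and 11 lower (26.2%) at all times, against 16.5% and 17.2% of all genes. The list of sterol and fatty acid genes was likewise near the background, with 4 higher and 6 lower of 37. In it *INSIG1*, the sterol sensor that retains SREBP, had the largest mean ratio below 0: 139.6, 170.4 and 330.3 CPM with olaparib, 77.6, 105 and 246 CPM with talazoparib and 78.1, 67.8 and 105 CPM with DMSO. The gap narrowed from −0.85 to −0.70 and −0.43, and at 48 h *ACAT2* was lower by more (−0.80). *SQLE* had ratios of −0.20, −0.27 and −0.18.

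A few genes were higher with olaparib than with talazoparib and DMSO. *CYP1A1*, the classical target of the aryl hydrocarbon receptor AHR, had 3.52, 5.96 and 15.1 CPM with olaparib, 1.32, 1.68 and 3.40 CPM with talazoparib and 0.780, 0.411 and 0.336 CPM with DMSO. Both inhibitor libraries lay above DMSO at each time, and the olaparib library was the highest. The ratios of talazoparib to olaparib were −1.40 (interval −1.76 to −1.08), −1.81 (−2.14 to −1.51) and −2.14 (−2.39 to −1.90), and their mean of −1.86 ± 0.47 did not pass the test (adjusted p = 0.952). *TIPARP*, an AHR-induced ADP-ribosyltransferase, had 76.8, 89.96 and 114 CPM with olaparib, 53.02, 74.1 and 80.3 CPM with talazoparib and 50.4, 47.5 and 58.6 CPM with DMSO. The AHR repressor *AHRR*, by the higher of the entries under that symbol, had ratios of −0.07, −0.37 and 0.33. *THBS1*, thrombospondin, had 152, 243 and 386 CPM with olaparib and 80.9, 110.0 and 307 CPM with talazoparib, against 50.3, 25.0 and 13.5 CPM with DMSO.

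*HMOX1*, the haem oxygenase that NRF2 and other factors induce, grew apart in favour of talazoparib: it had 6.77, 7.27 and 31.9 CPM with olaparib, 5.44, 9.03 and 97.9 CPM with talazoparib and 4.19, 2.63 and 2.198 CPM with DMSO (slope 0.98 ± 0.16, adjusted p = 9.0e-07). In the list of AHR and NRF2 targets, 5 of 24 members were higher with talazoparib at all times (20.8%) and 4 lower (16.7%). These shares were close to the 16.5% and 17.2% of all genes. Other NRF2 targets had smaller ratios at 48 h, of −0.23 for *NQO1* and 0.34 for *GCLM*. *SRXN1* passed the slope test at levels of 0.457 to 1.69 CPM (adjusted p = 0.041).

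Some genes had opposite signs at 12 and 48 h. *CEBPD*, a factor of myeloid maturation, had 36.5, 55.4 and 69.8 CPM with olaparib and 22.2, 57.5 and 95.9 CPM with talazoparib (slope 0.59 ± 0.15, adjusted p = 0.010), and *CFD* (complement factor D) had ratios of −0.44, 0.43 and 0.68 (adjusted p = 0.016). *GPR160* and *LINGO3* took the same course without passing the test. *NECTIN4*, an adhesion receptor, had 10.9, 10.5 and 8.80 CPM against 17.7, 14.1 and 4.53 CPM (adjusted p = 4.8e-04), and *GPA33* had ratios of 0.51, −0.02 and −0.84 (adjusted p = 0.0055). Of 21 dendritic cell genes 3 were higher (14.3%) and 5 lower (23.8%) at all times, against 16.5% and 17.2% of all genes. Against DMSO of the same time their medians were 0.26, 1.26 and 2.60 with olaparib and 0.24, 1.19 and 1.895 with talazoparib. The levels of *CD1A*, *CD207* and *LAMP3* were higher at 48 than at 12 h with both inhibitors, while that of *CCR7* was lower. In this list *CCR7*, a chemokine receptor of maturing dendritic cells, had 6.84, 4.85 and 2.77 CPM with olaparib, 11.3, 2.83 and 0.856 CPM with talazoparib and 0.168 to 0.383 CPM with DMSO (slope −1.24 ± 0.22, adjusted p = 1.0e-05).

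*U2AF1*, a splicing factor, had the largest slope of those named (−5.36 ± 0.19), with ratios of 6.91, 5.10 and −2.81. Its reads are shared with the near-identical copy *U2AF1L5*. The summed level was 25.3, 7.38 and 72.7 CPM with olaparib, 89.4, 17.8 and 10.6 CPM with talazoparib and 111, 88.2 and 85.7 CPM with DMSO, so that even the sum is uncertain as a level of the gene. *CBS*, whose own ratios were 6.19, −3.42 and −0.39, had ratios of −0.19, −0.63 and −0.23 when summed with its copy *CBSL*.

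All 13 mitochondrially encoded genes were lower with talazoparib at 12 h and higher at 48 h, with medians of −0.08, −0.04 and 0.46. Over all 17218 genes, 8556 were lower at 12 h and 8360 higher at 48 h. Their share of all counts ran from 1.416% (olaparib at 48 h) to 1.928% (olaparib at 12 h) over the 9 libraries and was 1.788% with talazoparib at 48 h. At 48 h the TMM factors were 0.904 with olaparib and 0.856 with talazoparib, against 1.02 to 1.06 in the other libraries, so the 48 h inhibitor libraries stand apart in composition from the rest, the 48 h DMSO library included. Markers of other blood cells differed by list. The lymphoid and erythroid lists were mixed, and the megakaryocyte list lay more on the side higher with talazoparib (43.8% higher and 6.25% lower at all times). Over all genes, 16.5% were higher and 17.2% lower with talazoparib at all times. Of 16 megakaryocyte genes 7 were higher with talazoparib at all times and 1 lower, with *ITGB3*, an integrin of platelets, at 0.828 to 2.59 CPM, and *GATA1*, their lineage factor, at ratios of 0.29, 0.30 and 0.34. Of 15 lymphoid genes 4 were higher and 3 lower, and of 5 erythroid genes 1 and 1, among which *TFRC*, the transferrin receptor of all dividing cells, had 125 and 52.8 CPM at 48 h. The part of composition in the differences above was not tested.

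Knockdown of *EVI1* provides libraries that the comparison did not use. Of the 234 genes whose difference fell with time, 223 were lower than the non-targeting control at both days with shEVI1-2532 (40.9% of all genes) and 203 with shEVI1-2531 (34.8%). Of the 28 genes whose difference rose, 27 were measured there, and 16 were higher at both days with shEVI1-2532 (40.8% of all genes) and 11 with shEVI1-2531 (36.4%). The G2/M list had medians of −1.63 and −1.45 with shEVI1-2532 at day 3 and day 6 and of −0.63 and −0.45 with shEVI1-2531. The MHC class II genes, in contrast to their course with talazoparib, had medians of 0.21 and −0.13 with shEVI1-2532 and of −0.48 and −0.80 with shEVI1-2531. *CYP1A1* was higher than the control in all 4 knockdown libraries (log2 ratios 2.09 to 3.29), and *INSIG1* as well (0.11 to 2.63).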

How the data were processed

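RNA-Seq of MUTZ-3 cells (TruSeq Stranded mRNA, 100 bp paired ends) was used. Per the labels, the authors processed reads with STAR, Picard and featureCounts on hg38/GRCh38 and deposited raw counts per gene. TPM columns, also deposited by the authors, were not used for tests. Versions, and whether counting used strand, are not given in the sources used here. Groups were taken from the labels.

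From the counts, genes that reached 10 counts in 3 or more of the 9 DMSO, olaparib and talazoparib libraries were kept, scaled by TMM and fitted with edgeR 4.0.16 (quasi-likelihood, R 4.3.3). The mean talazoparib-olaparib difference was fitted with time as a factor (4 residual degrees of freedom) and its slope on log2 hours in a second model (2). P-values were adjusted after Benjamini-Hochberg over all 17218 genes, with a threshold of 0.05. Alternatives were DESeq2 1.42.0, upper quartile or total scaling, other filters, other prior counts, other time scales and each time left out. The steps were also run on simulated counts with a known mean difference or an exactly straight slope and the same dispersion for all genes. That setting differs from these libraries, so the run checks the code and not the calls made here.

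Gene lists, members and rules were chosen with earlier results of these data known. Named genes were, among those with a mean log2 CPM of at least 3, the 10 per direction with the largest smallest ratio of 1 sign, the 8 with the smallest slope p among growing ratios, and the 4 with the largest opposite ratios at 12 and 48 h. Key members of the lists, and the 4 members of each with the largest mean ratio, were named at any level. Members described beyond these were chosen after their values were seen. Plots used matplotlib 3.10.9 (Python 3.11.15).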

Additional observations from a re-analysis of the deposited data

Results flagged for a closer look

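The talazoparib-olaparib difference itself differed between times, by the slope test over 12, 24 and 48 h, in 234 genes where it fell and in 28 where it rose. Slopes are log2 CPM per doubling of time.

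Among the genes named for the largest ratios of 1 sign, for growing ratios or for opposite signs at 12 and 48 h, a falling difference was found, for cell division, in *AURKB* (−1.11), *CDC20* (−1.03), *NEK2* (−1.03), *TROAP* (−1.05), *BUB1B* (−0.97), *CENPF* (−0.97), *TOP2A* (−0.97), *CCNA2* (−0.93), *CENPA* (−0.91), *NUF2* (−0.89), *CDKN3* (−0.88), *DLGAP5* (−0.88), *HMMR* (−0.88) and *DEPDC1* (−0.84), and for replication *GINS1* (−0.97). Outside the cell cycle it was found in *NECTIN4* (−0.82), *GPA33* (−0.67) and *U2AF1* (−5.36), whose reads are shared with a near-identical copy. By the same choice of genes a rising difference was found in *CEBPD* (0.59), *CFD* (0.56) and *C3* (0.55). Genes named for growing ratios were picked by the smallest slope p, and those of opposite signs for ratios far apart at 12 and 48 h. That genes picked in these ways passed the slope test is therefore no separate finding. Members of the gene lists that passed the test, among them *ERG* (−1.05), *PHGDH* (−1.02), *CCR7* (−1.24) and *HMOX1* (0.98), are described with their lists.

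Of the 234 genes, 82 were in the 3 lists of G2/M, S phase and repair genes and 141 in no list, among them *MYBL2*, *FOXM1*, *KIF20A*, *PTTG1*, *NCAPH* and *CDC7*. Of the 28, 24 were in no list and 9 had a mean log2 CPM of at least 3.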

How the results depend on the processing

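The mean test called 0 genes, 1 with DESeq2, 5 without a filter, 23 from the 6 inhibitor libraries alone and 0 to 3 with each time left out. For the slope, falling and rising calls of 234 and 28 became 119 and 3 with DESeq2, 140 and 16 at a threshold of 0.01, and 20 and 4 with 48 h against the mean of 12 and 24 h. Linear hours gave 356 falling calls and a mean of at least 100 counts 16 rising ones. Of the 262 main calls, 256 were shared under upper quartile scaling, 246 with library totals, 257 with the 6 inhibitor libraries, 258 with linear hours and 121 with DESeq2. The slope could not be tested with a time left out, since no residual degrees of freedom remain.

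Without a filter, 5227 genes were lower at all times. With the filter, 605 higher and 823 lower genes lay outside the counting interval each time. Genes past 2-fold, higher and lower, were 29 and 31 at 12 h, 81 and 50 at 24 h and 121 and 439 at 48 h with a prior count of 10. With a mean of at least 100 counts they were 10 and 12, 19 and 26, and 36 and 319. Without a filter they were 981 and 1185, 1443 and 884, and 1727 and 2252. A prior count of 0.5 gave 356 higher at 12 h. At 48 h more genes were lower than higher in every setting run. In 344 checks of the slopes of named genes, 27 lost and 7 gained a call. No slope called in the main fit changed sign. For slopes not called there, the sign was not compared. Low counts and 1 library per condition limit all counts. No paired analysis was possible because each condition has 1 library and so no replicate numbers to pair, beyond the pairing by time that the fit of the mean holds.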
